A study of Mus musculus with 6 samples.

Results

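The AP-1 and EGR immediate early genes are 10 genes given as a list of symbols: Jun, Junb and Jund of the JUN family, Fos, Fosb, Fosl1 and Fosl2 of the FOS family, the zinc finger factors Egr1 and Egr3, and Ier2. All 10 were found among the 53819 gene symbols of the count table, and all 10 had enough reads to be tested. RNA was sequenced from 3D gastruloids made from the mouse embryonic stem cell line E14. These aggregates are used as a model of early body axis formation. The comparison was between 3 untreated libraries and 3 libraries of aggregates kept for 80 h with budesonide, a synthetic glucocorticoid, and asked how the drug changed the transcriptome. Whether the untreated aggregates received a vehicle, and whether the replicates were separate cultures, is not given in the sources used here, and the spread that the p-values rest on may therefore be technical.

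Immediate early genes are switched on within minutes of a signal without the need for new protein, typically when MAP kinases phosphorylate transcription factors that already sit on their promoters. JUN and FOS proteins carry a basic leucine zipper. JUN proteins pair with each other or with FOS proteins to form the AP-1 factor, whereas FOS proteins need a JUN partner. EGR proteins bind GC-rich DNA through zinc fingers. The glucocorticoid receptor, which budesonide activates, is known for interfering with AP-1 activity, and growth factor signalling through ERK is a main inducer of Egr1 and Fos in stem cells and the early embryo.

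With budesonide the 10 genes did not move together. Jun, Jund and Egr1 rose, Fosl2 and Egr3 fell, and Junb, Fos, Fosb, Fosl1 and Ier2 did not pass the test. Jun rose 2.07-fold, to 40.2 ± 2.49 CPM (reads relative to the scaled library size; mean ± SD, n = 3), and Egr3 fell 2.23-fold, to 2.97 ± 0.404 CPM. Fos, the founding member of its family, was at 49.1 ± 2.82 CPM without and 49.4 ± 5.09 CPM with the drug. All budesonide libraries are from 80 h of treatment, so an earlier and passing change of these genes would not be seen.

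A total of 5 of the 10 genes passed the quasi-likelihood test of edgeR (threshold 0.05 after Benjamini-Hochberg adjustment across 17155 genes), against 28.7% of all tested genes. By direction 3 were higher, where 15.2% of all tested genes were, and 2 were lower, where 13.5% were. The median log2 fold change of the 10 was 0.03, beside -0.02 for all tested genes. The libraries of the groups did not overlap for 7 of the 10, against 39.6% of all tested genes. The split of the calls over all genes depended on the scaling, with 2601 higher and 2316 lower here, 2178 and 2873 with upper quartile scaling, and 2003 and 3186 with no scaling factors. The 5 calls among the 10 genes stood under each of these.

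The DNA just before the start site is shown for a member that rose (Jun), a member that did not pass (Fos) and a member that fell (Fosl2), so that the elements named below can be seen in place. The 250 bases before the start were taken from RefSeq on GRCm38.p6, an older build than the GRCm39 named in the submitters' processing notes, and the coordinates are of GRCm38.p6. RefSeq windows were at hand for 6 of the 10 genes. The Jun window is chr4:95052223-95052472 on the minus strand. Its capitals mark a CCAAT box and the element TGACATCA, a variant AP-1 site known from this promoter.

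Jun: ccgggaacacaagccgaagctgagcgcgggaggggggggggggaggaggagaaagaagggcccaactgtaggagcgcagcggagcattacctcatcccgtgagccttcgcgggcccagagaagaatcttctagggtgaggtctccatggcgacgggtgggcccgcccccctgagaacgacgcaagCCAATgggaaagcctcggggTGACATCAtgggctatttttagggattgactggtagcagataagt

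The Fos window is chr12:85473640-85473889 on the plus strand. Its capitals mark TGACG, the core of the cyclic AMP response element, found in 2 places, and a TATA box (TATAAA).

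Fos: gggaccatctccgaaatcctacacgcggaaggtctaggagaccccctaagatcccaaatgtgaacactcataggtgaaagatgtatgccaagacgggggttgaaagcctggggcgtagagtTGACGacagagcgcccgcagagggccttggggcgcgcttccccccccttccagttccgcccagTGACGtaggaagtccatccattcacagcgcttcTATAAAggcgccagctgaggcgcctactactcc

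The Fosl2 window is chr5:32136222-32136471 on the plus strand. Its capitals mark an EGR motif (GCGNGGGCG) that overlaps a GC box (GGGCGG). The GC box is marked in this window alone, although the Jun and Fos windows hold it too, on the other strand.

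Fosl2: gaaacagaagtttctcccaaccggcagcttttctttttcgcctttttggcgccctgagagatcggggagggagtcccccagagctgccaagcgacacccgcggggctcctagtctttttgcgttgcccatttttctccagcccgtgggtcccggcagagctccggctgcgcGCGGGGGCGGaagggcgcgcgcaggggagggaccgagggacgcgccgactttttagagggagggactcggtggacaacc

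Each motif was searched on both strands in 32536 windows of the same length. TGACATCA was found in the Jun window, from base -45 to -38, and in 2.84% of all windows. TGACG was found in the windows of Fos, Fosb and Junb and in 17.9% of all windows, and the Fos copies began at bases -129 and -66. The EGR motif was found in the windows of Fosb and Fosl2 and in 4.74% of all. The GC box was found in the windows of Jun, Fos, Fosb and Fosl2 and in 33% of all. The palindromic AP-1 site TGANTCA, the full cyclic AMP response element TGACGTCA, the full palindromic glucocorticoid response element and the CArG box of serum response factor were found in none of the 6 windows and in 6.73%, 1.56%, 0.00922% and 1.48% of all. DNA farther than 250 bases before the start was not searched, and Egr1 is among the genes without a window. An element absent from a window may therefore lie outside it. These matches describe letters in the windows and say nothing of binding.

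Of the JUN family, Jun and Jund rose and Junb did not pass. Jun, the founding AP-1 subunit, had 18.3, 19.8 and 20.0 CPM in the untreated libraries and 38.5, 39.0 and 43.0 CPM in the budesonide libraries. Each budesonide library was far above each untreated library. The log2 fold change was 1.05 ± 0.11 (SE; edgeR adjusted p = 5.7e-11), and its size exceeded that of 95.3% of tested genes. Jund, a JUN protein that many cells express without stimulation, had 39.8, 44.9 and 46.5 CPM without and 71.1, 63.6 and 75.7 CPM with budesonide. Again the groups were well apart, and Jund rose 1.60-fold (log2 fold change 0.68 ± 0.08, SE; edgeR adjusted p = 9.85e-09).

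Junb, a JUN protein that can restrain the growth-promoting activity of Jun, had 11.9, 15.5 and 13.7 CPM in the untreated libraries. It had 12.1, 14.9 and 15.8 CPM with budesonide. The groups overlapped across nearly their whole range. The log2 fold change was 0.05 ± 0.15 (SE), with a 95% interval from -0.26 to 0.35 that does not reach the value of Jun or of Jund. In the GENCODE M21 annotation Junb overlaps Prdx2 on the opposite strand, a gene with 384 to 723 reads per library that fell by 0.54 on the log2 scale. The strand setting of the counting is not given in the sources used here, so reads of the pair cannot be told apart with certainty. Junos, antisense to Jun, had 10 to 22 reads per library, against 120 to 273 for Jun.

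**Figure D1:**
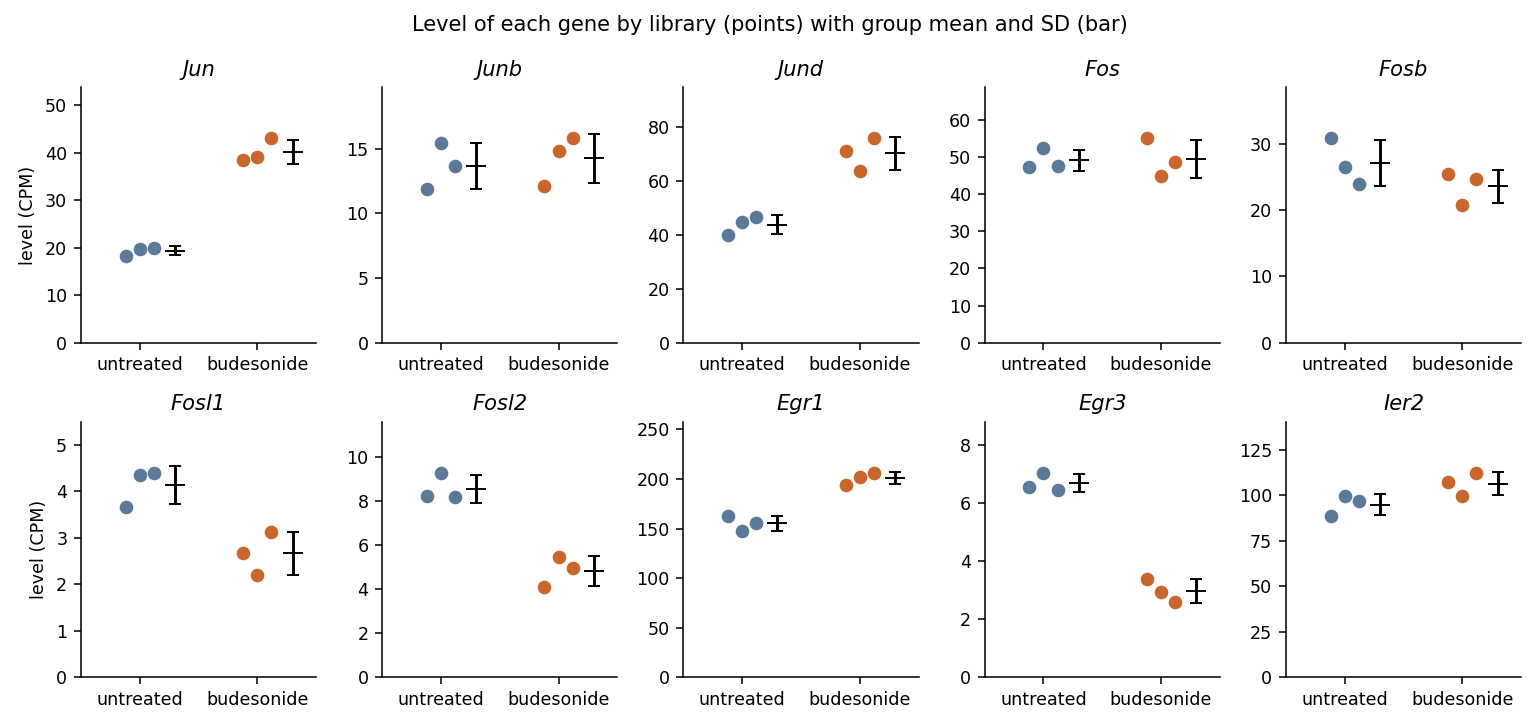
Level of each of the 10 genes in CPM (vertical axes from 0, a separate scale per gene) in the 3 untreated and 3 budesonide libraries; points are libraries and the black bar is the group mean with its SD. Jun and Jund lie higher in every budesonide library, Fosl2 and Egr3 lie lower, and the points of Junb, Fos and Fosb overlap.

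Of the FOS family only Fosl2 passed the test, and it fell. Fosl2 (Fra-2), a FOS-related subunit without the strong activation domain of Fos, had 8.23, 9.28 and 8.17 CPM without and 4.09, 5.45 and 4.96 CPM with budesonide. The highest budesonide library was below the lowest untreated library, and the log2 fold change was -0.83 ± 0.21 (SE; edgeR adjusted p = 0.00174). Fosl1 (Fra-1), the other FOS-related subunit, had 24, 31 and 28 reads without and 19, 15 and 17 with budesonide, which is 3.66, 4.36 and 4.40 against 2.68, 2.21 and 3.12 CPM. The groups did not overlap, but the fall, -0.64 ± 0.29 (log2, SE), missed the threshold (edgeR adjusted p = 0.0979). Fosl1 also overlaps Ccdc85b on the opposite strand, which had 85 to 134 reads per library and fell by 0.37 on the log2 scale.

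Fos had 47.3, 52.3 and 47.6 CPM in the untreated libraries and 54.9, 44.9 and 48.5 CPM with budesonide. The highest and the lowest values were both in the budesonide group. The log2 fold change was 0.01 ± 0.09 (SE; edgeR adjusted p = 0.941), and its 95% interval ran from -0.17 to 0.19. Fosb, which encodes a full-length activator and a truncated form that these counts do not separate, had 30.8, 26.4 and 23.9 CPM without and 25.4, 20.8 and 24.6 CPM with the drug. The groups overlapped, and the log2 fold change was -0.20 ± 0.12 (SE; edgeR adjusted p = 0.221).

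Egr1 and Egr3 moved in opposite directions. Egr1, a zinc finger factor induced by ERK signalling, had 162.5, 147.8 and 155.7 CPM without and 194.0, 202.2 and 206.1 CPM with budesonide. The groups were apart by more than the spread within either, although the change was small, 1.29-fold (log2 fold change 0.37 ± 0.06, SE; edgeR adjusted p = 3.62e-06). Egr3, a relative that binds the same kind of GC-rich site, had 43, 50 and 41 reads in the untreated libraries and 24, 20 and 14 with budesonide. In CPM these were 6.56, 7.03 and 6.44 against 3.38, 2.94 and 2.57. Every budesonide library was lower, with a log2 fold change of -1.15 ± 0.25 (SE; edgeR adjusted p = 0.000274), larger in size than that of 96.6% of tested genes.

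Ier2, a short-lived nuclear protein induced by growth factors, had 88.6, 99.4 and 96.9 CPM without and 107.5, 99.6 and 112.3 CPM with budesonide. The groups did not overlap, but the nearest libraries, untreated replicate 2 and budesonide replicate 2, were almost level. The difference, 0.16 ± 0.07 (log2, SE), missed the threshold (edgeR adjusted p = 0.0749). It passed when budesonide replicate 2 was left out (0.22, adjusted p = 0.0193), the single change of a call among the 10 genes over 15 alternative analyses.

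**Figure D2:**
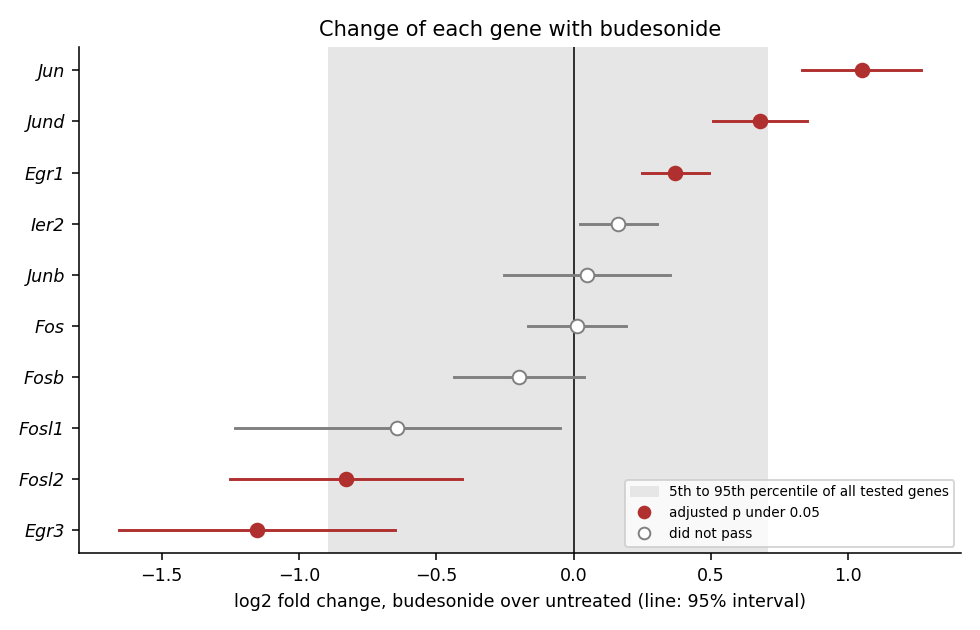
Log2 fold change of each gene, budesonide over untreated, with its 95% interval (horizontal lines); filled red points passed an adjusted p under 0.05 and the grey band holds the 5th to 95th percentile of all tested genes, -0.89 to 0.70. Jun lies above the band and Egr3 below it, and Junb and Fos sit near 0.

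To set levels of different genes side by side, CPM was divided by the exon length of each gene in kb. This length joins all annotated exons of a gene (9680 bases for Fosl2, 6243 for Fosb) and may exceed that of the expressed transcript. The order of the genes and the family sums below depend on it. In untreated gastruloids Ier2 was the highest at 62.4 ± 3.73 CPM per kb (mean ± SD, n = 3). It was followed by Egr1 at 34.6 ± 1.64, Jund at 26.2 ± 2.10 and Fos at 20.9 ± 1.20 CPM per kb. Jun (6.07 ± 0.290 CPM per kb) and Junb (5.94 ± 0.777 CPM per kb) had overlapping libraries, so their order is not resolved. Below them came Fosb at 4.33 ± 0.560, Fosl1 at 2.04 ± 0.205, Egr3 at 1.51 ± 0.0710 and Fosl2 at 0.884 ± 0.0640 CPM per kb. With budesonide the order of the means was the same. Jun, at 12.6 ± 0.781 CPM per kb, was then above Junb, at 6.20 ± 0.834 CPM per kb, in every library, while Egr1 (44.8 ± 1.38 CPM per kb) and Jund (42.1 ± 3.69 CPM per kb) came to overlap.

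The summed level of the JUN family was 34.8, 39.8 and 40.1 CPM per kb in the untreated and 60.0, 56.8 and 65.8 CPM per kb in the budesonide libraries. The summed level of the FOS family was 27.7, 29.6 and 27.1 against 29.2, 24.1 and 26.6 CPM per kb. The JUN sums did not overlap between groups and the FOS sums did. The ratio of the JUN to the FOS sum was 1.36 ± 0.113 without and 2.30 ± 0.214 with budesonide (mean ± SD, n = 3), a description of transcripts and not of protein dimers. Jund gave most of the JUN sum in both groups, 68.6 ± 1.03% and 69.1 ± 2.01%. The share of Jun went from 15.9 ± 0.516% to 20.7 ± 0.732% and that of Junb from 15.5 ± 1.17% to 10.2 ± 1.31%, with no overlap between groups for either. Within the FOS sum Fos gave 74.2 ± 1.39% and 79.0 ± 1.35%, and Fosl2 3.14 ± 0.0873% and 1.90 ± 0.446%. A share also moves when other members of its sum move. Neither Junb nor Fos passed the test for its own level.

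**Figure D3:**
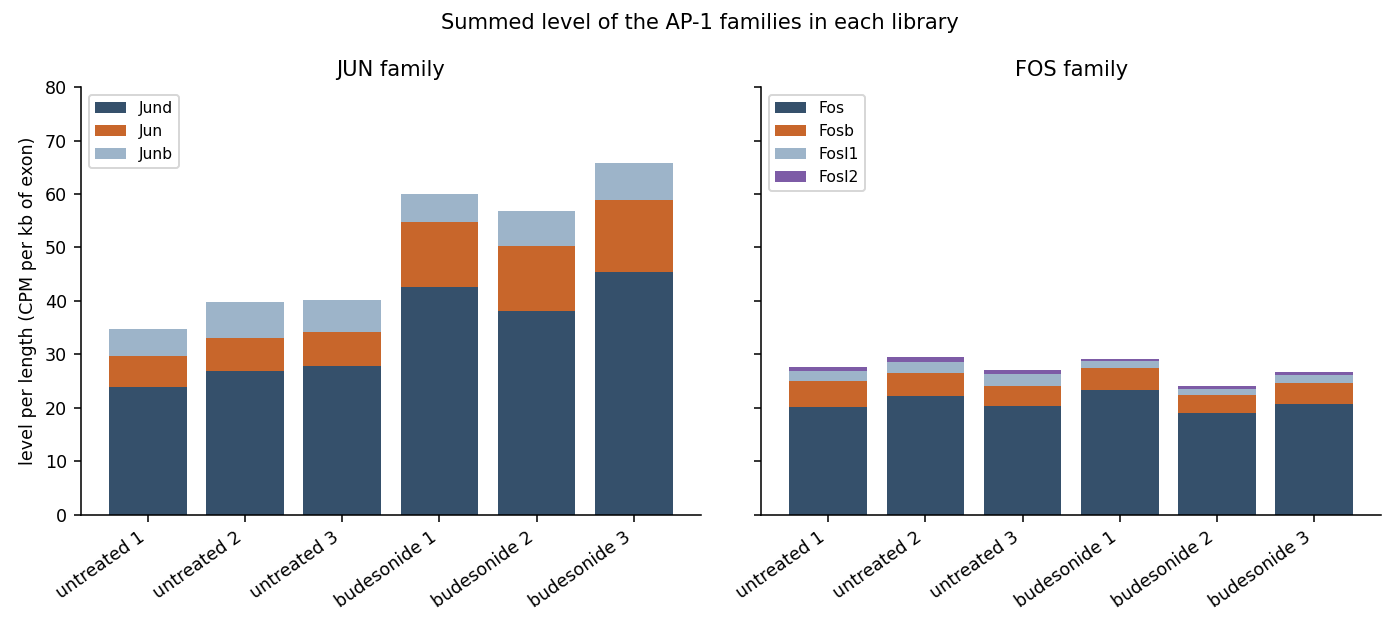
Summed level per exon length (CPM per kb, vertical axis from 0) of the JUN family (left) and the FOS family (right) in each of the 6 libraries, divided by gene. The JUN bars are 34.8 to 40.1 in untreated and 56.8 to 65.8 in budesonide libraries, and the FOS bars overlap between the groups.

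Libraries of a group also differed in these genes. The mean deviation of their log2 CPM from the group mean was -0.05, 0.06 and -0.01 in untreated replicates 1, 2 and 3 and -0.01, -0.06 and 0.06 in the budesonide replicates, where that of all genes was between -0.01 and 0.02. Untreated replicate 2 and budesonide replicate 3 were above their group mean for 8 of the 10 genes each, and untreated replicate 1 for 2 of the 10. No such count was made over all genes. A mean over 10 genes also scatters more than a mean over all genes, so these ranges cannot be compared directly. Jun, Jund, Fosl1 and Ier2, chosen after their values were seen, were all below their group mean in untreated replicate 1 and budesonide replicate 2 and all above it in untreated replicates 2 and 3 and budesonide replicate 3. Pearson's r between the deviations of these 4 genes over the 6 libraries was 0.81 to 0.97. Fos and Egr1 deviated in opposite directions (r = -0.74), and so did Egr1 and Egr3 (r = -0.73). These pairs were also chosen after their values were seen. These values are a description of few libraries that share depth and scaling.

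The other bZIP proteins that can pair with JUN or FOS gave 3 rises and 1 fall among 10 tested of 14 (median log2 fold change 0.18). These are 30% and 10%, beside 15.2% and 13.5% of all tested genes. Jdp2, a JUN dimerization protein that represses AP-1 sites, rose from 6.86 ± 2.07 to 17.4 ± 4.63 CPM (log2 fold change 1.31 ± 0.20, SE). Mafg, a small MAF protein, rose 1.29-fold, to 150.7 ± 10.1 CPM. Atf3, the other gene that rose, was named after its value was seen and lost its call in DESeq2 (adjusted p = 0.111), with no scaling factors (0.0589), with no filter on low counts (0.0857) and when a library was left out: untreated replicate 2 (0.0844), replicate 1 of the budesonide group (0.05003) or its replicate 2 (0.0695). Of the EGR relatives and NAB proteins, which bind and repress EGR factors, none of 4 tested passed in edgeR or in any alternative, and Egr2, with an unadjusted p of 0.0202, was the single one below 0.05.

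Among 28 tested of 31 other immediate early genes 12 rose and 3 fell, which is 42.9% and 10.7%, beside 15.2% and 13.5% of all tested genes, and the median log2 fold change was 0.14. Plk3, a stress-responsive polo-like kinase, rose from 23.4 ± 1.32 to 65.5 ± 1.85 CPM, 2.80-fold, and the zinc finger factor Klf6 rose from 24.8 ± 1.71 to 55.6 ± 3.24 CPM. Homer1, a synaptic scaffold gene with an activity-induced short form, fell from 43.1 ± 1.54 to 30.4 ± 2.97 CPM. Ier5l fell 1.48-fold (log2 fold change -0.56). It was also lower, but missed the threshold, in DESeq2 (-0.53, adjusted p = 0.101), without untreated replicate 2 (-0.48, 0.0687) and without budesonide replicate 2 (-0.42, 0.0851). The count of falls was 1 in DESeq2 and without either of those libraries, and 5 with upper quartile scaling or no scaling factors.

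**Figure D4:**
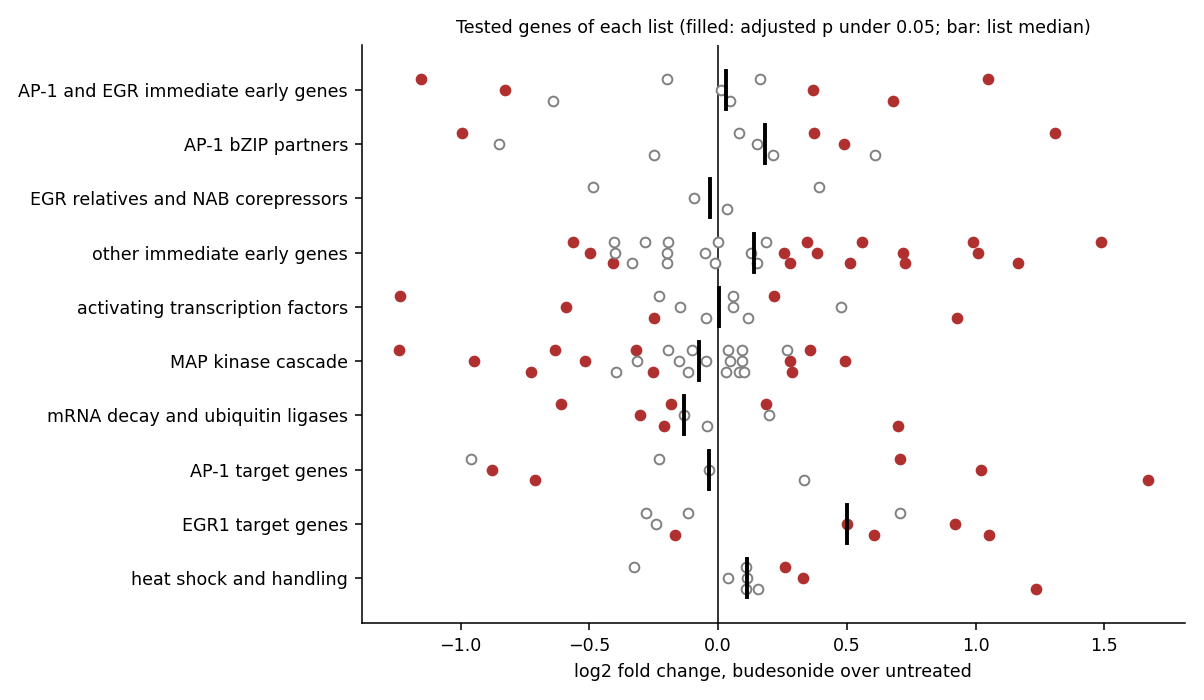
Log2 fold change, budesonide over untreated, of the tested genes of the AP-1 and EGR set and of 9 lists around it; filled red points passed an adjusted p under 0.05, open points did not, and black bars are list medians. Of the lists with calls, the heat shock list alone has its called genes on one side of 0.

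Transcription factors that switch these genes on gave 2 rises and 3 falls among 12 (median 0.00). The shares were 16.7% and 25%, beside 15.2% and 13.5% of all tested genes. Srf, serum response factor, which binds CArG boxes of Fos and Egr1, had 64.8 ± 1.89 CPM without and 42.8 ± 3.45 CPM with budesonide, a fall of 1.51-fold. Mef2c, a related MADS box factor, fell 2.36-fold, to 2.03 ± 0.232 CPM. Elk3, an ETS partner of SRF that can repress, rose from 4.25 ± 1.75 to 7.96 ± 1.22 CPM. Elk3 overlaps Cdk17 on the opposite strand, which rose by 0.52 on the log2 scale. Atf1 was called higher by 0.22 ± 0.08 (log2 fold change ± SE) with overlapping libraries, and lost the call in 10 of 15 alternatives, among them DESeq2 (adjusted p = 0.0700) and the fits lacking untreated replicate 1 (0.149) or 2 (0.0583), or replicate 1 (0.0839) or 2 (0.0838) of the budesonide group.

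In the MAP kinase cascade 4 of 26 genes rose and 7 fell (median -0.07). That is 15.4% and 26.9%, beside 15.2% and 13.5% of all tested genes. Members of the p90 ribosomal S6 kinase family, which act below ERK and phosphorylate SRF and CREB, went both ways. Rps6ka2 rose from 92.0 ± 5.41 to 129.4 ± 5.88 CPM and Rps6ka1 1.28-fold, whereas Rps6ka6 fell from 137.2 ± 4.59 to 88.7 ± 7.01 CPM and Rps6ka3 1.66-fold. Of genes for mRNA decay and ubiquitin ligases that limit FOS and JUN products, 2 of 9 rose and 4 fell (median -0.13). Their shares were 22.2% and 44.4%. The decay factor Zfp36l1 rose from 54.3 ± 1.92 to 88.1 ± 1.71 CPM and its relative Zfp36l2 fell from 68.2 ± 3.63 to 44.8 ± 3.88 CPM. Itch, a ubiquitin ligase for JUN proteins, fell 1.23-fold. Fbxw7, another JUN ligase subunit, was called higher by 0.19 ± 0.07 (log2 fold change ± SE) but lost the call in 9 of 15 alternatives, among them DESeq2 (adjusted p = 0.0573) and the fits lacking untreated replicate 2 (0.129), or replicate 1 (0.0668) or 3 (0.0770) of the budesonide group.

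Genes known as AP-1 targets in other cells gave 3 rises and 2 falls among 9 tested of 13 (median -0.03). The shares were 33.3% and 22.2%, beside 15.2% and 13.5% of all tested genes. Spp1, the secreted matrix protein osteopontin, rose from 18.3 ± 2.52 to 58.0 ± 6.63 CPM and the haem-degrading enzyme gene Hmox1 1.63-fold. Cyclin D1, Ccnd1, fell from 120.2 ± 7.95 to 73.1 ± 6.81 CPM, and the hyaluronan receptor Cd44 1.84-fold (log2 fold change -0.88). Cd44 was also lower, but missed the threshold, in DESeq2 (-0.86, adjusted p = 0.0667) and without untreated replicate 2 (-0.77, 0.0505). The metalloproteinase genes Mmp3, Mmp10 and Mmp13 had too few reads for a test. Of 9 genes known as EGR1 targets 4 rose (44.4%) and 1 fell (11.1%), with a median of 0.50. Fn1, fibronectin, rose from 780.5 ± 33.1 to 1619 ± 108 CPM and the growth factor Pdgfa 1.52-fold.

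Heat shock genes, which rise with immediate early genes when cells are handled roughly, were read beside these values. Of 9 tested of 10, 3 rose and none fell (median 0.11). The rises were 33.3%, where 15.2% of all tested genes were higher and 13.5% lower. At an unadjusted p under 0.05 none of the list was lower, and DESeq2 called none lower. Hspb1 rose from 38.2 ± 8.41 to 90.1 ± 8.78 CPM and Hsp90aa1 from 3212 ± 310.5 to 4034 ± 274.2 CPM (log2 fold change 0.33). With limma the change of Hsp90aa1 was as large (0.36) but missed the threshold (adjusted p = 0.143). The summed level of the list was 7417 to 7703 CPM in untreated and 8419 to 8954 CPM in budesonide libraries. The inducible genes Hspa1a and Hspa1b were near the detection limit in both groups, with means from 0.574 to 2.51 CPM, where 3 reads are 0.422 to 0.551 CPM. The part of handling in the changes of the immediate early genes was not tested.

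For Jun, Fos and Egr1 the genes with the most similar profile were sought among the 11076 genes whose mean reached 5 CPM, by Pearson's r of log2 CPM over the 6 libraries. This is a description over few libraries that fall into the treatment groups. For Jun they were Add1 (r = 0.9996), Arfgap1 (0.9993) and Uap1l1 (0.9993), which rose by 0.40, 0.40 and 0.72 on the log2 scale. For Egr1 they were Ermard (0.9995), Mitd1 (0.9981) and Nucb1 (0.9977), which rose by 0.57, 0.57 and 0.50. For Fos they were Mief1 (0.993), Bod1 (0.969) and Mrpl48 (0.962), none of which passed the test.

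The libraries held 5666168 to 7476862 counted reads, and mitochondrial genes took 10.4 to 13.4% of them. The aggregates expressed the pluripotency gene Pou5f1 in both groups, at 733.9 ± 7.03 and 776.0 ± 48.1 CPM. The marker counts that follow stand beside 15.2% higher and 13.5% lower of all tested genes. Pluripotency markers summed to 1217 to 1257 CPM without and 1761 to 1961 CPM with budesonide, with 5 of 6 higher. Posterior streak markers summed to 249.3 to 271.0 and 9.02 to 14.2 CPM, with all 4 tested of 6 lower. Markers of other cell types summed to 9.60 to 13.1 and 6.43 to 11.9 CPM for extraembryonic endoderm, with none of 3 tested passing. They summed to 24.0 to 28.1 and 27.3 to 30.9 CPM for endothelium and blood, with 1 of 4 higher. Fibroblast markers summed to 15.7 to 16.9 and 9.02 to 10.8 CPM, with 2 of 4 lower. Neuron markers summed to 80.1 to 91.0 and 122.7 to 135.7 CPM, with 2 of 6 higher and 3 lower. Most of the neuron sum was Stmn2, which rose from 59.1 ± 4.67 to 104.7 ± 5.39 CPM. Tubb3 rose too, Dcx, Rbfox3 and Elavl3 fell, and Snap25 did not pass. In these bulk samples a change in the number of cells of a type and a change in RNA per cell cannot be told apart, and the part of cell composition in the values of the 10 genes was not tested.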

How the data were processed

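Libraries were made with a stranded mRNA kit, per the labels' protocols. Tools and build in the submitters' processing notes are STAR 2.7.5c, featureCounts 2.0, cutadapt 2.5, bcl2fastq, DESeq2 and GRCm39. For annotation and strand setting, the sources used here give nothing. The authors deposited raw counts per gene symbol and a second table of normalized signal, which on checking was the counts divided by 1 factor per library (100% of values within 0.1 reads), without genes of at most 10 reads. The 10 genes and the lists were chosen with earlier results of these data known.

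Groups and replicate numbers came from the titles. The raw counts were tested with edgeR 4.0.16 (R 4.3.3). Low genes were removed by filterByExpr with a minimum count of 10 and a total of 15, libraries were scaled by TMM, and a robust quasi-likelihood model held the group alone. Benjamini-Hochberg adjusted p-values were read at 0.05. Standard errors came from the F statistic. Pairs of libraries within a group differed by 1.42 to 3.12 in chi-square per gene, where 1 would be sampling noise. Scripts were tested on simulated data. Exon lengths are unions of GENCODE M21 exons.

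From each list up to 2 risen and 2 fallen genes are named by smallest adjusted p, given a mean of 1 CPM or more; genes named otherwise were chosen after their values were seen. Some genes of the lists that this rule covers are counted but not reported here by name. Alternatives were DESeq2 1.42.0, RLE, upper quartile and no scaling, no filter, 1 CPM in 3 libraries, a replicate block, limma 3.58.1 on log2 of the deposited normalized values plus 1, each library left out, and an adjusted p under 0.01.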

Additional observations from a re-analysis of the deposited data

How the results depend on the processing

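Jun, Jund and Egr1 stayed higher and Fosl2 and Egr3 stayed lower with an adjusted p under 0.05 in all 15 alternatives, with log2 fold changes from 0.97 to 1.08, 0.60 to 0.76, 0.29 to 0.41, -0.92 to -0.71 and -1.26 to -1.07. The highest adjusted p among these was 0.0309, for Fosl2. Fos ranged from -0.07 to 0.10 and Junb from -0.03 to 0.16. Of the 116 tested genes of the 9 lists, 33 were called higher and 21 lower, where 15.2% and 13.5% of all tested genes were. Over the alternatives 27 to 34 list genes were higher. Lower were 12 in DESeq2 and up to 29 with no scaling factors. Over all tested genes 2316 were lower, and 1318 in DESeq2. The lists were chosen with earlier results of these data known. The cause of the lower DESeq2 counts was not tested. Counts of the lists that moved by over 1.5 times were small: bZIP partners lower, 1 against 0 to 2; other immediate early genes lower, 3 against 1 to 5; activating factors higher, 2 against 1 to 3; decay factors and ligases higher, 2 against 1 to 2; AP-1 targets lower, 2 against 1 to 3; EGR1 targets lower, 1 against 0 to 1. The 10 genes, the lists and the genes of similar profile held 65 called genes together. None changed direction, and 48 of the 65 kept the call throughout. Those that lost it were all genes of the lists. With a replicate block 3 of the 10 genes were higher and 2 lower, as without it, and over all genes 2649 and 2337. Same-numbered libraries deviated together weakly or not at all (r = 0.04, 0.059 and -0.018), where all pairs gave -0.07 to 0.059. Untreated replicates 1 and 2 correlated best with their own number, and untreated replicate 3 did not. Fosl1 and Egr3 rest on 14 to 50 reads per library, which limits their precision.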
